A study of Homo sapiens with 15 samples.

Results

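The core of the NF-kB pathway was followed through 8 genes in SW480, a line from a human colorectal tumour listed in the labels under intestinal epithelial cells. The genes are the 5 NF-kB subunit genes (NFKB1, NFKB2, RELA, RELB and REL) and the 3 genes of the IkB kinase complex (CHUK, IKBKB and IKBKG). They were chosen by gene symbol, and each symbol has 1 row among the 57905 genes of the deposited table. RNA sequencing values were used for 12 libraries in 4 groups of 3. In the PINT shRNA1+LPS group, cells carried a lentiviral short hairpin RNA against the long non-coding RNA PINT and received 1 µg/ml lipopolysaccharide (LPS, a bacterial cell wall component) for 4 h. PINT shRNA1 cells carried the same hairpin and received the PBS vehicle, LPS cells were wild type and received LPS, and Control cells were wild type and received PBS. Cells with a control hairpin are not among the labelled groups, so the PINT hairpin, its lentiviral vector and the making of the stable line cannot be told apart. Nothing in the labels ties the replicates to separate cultures, and the spread behind each p-value may be technical. The 6 PINT shRNA1 samples of the labels correspond to 3 columns of the table, with 2 samples to a column. Whether such a column holds 1 of its samples or both is not recorded, and each column is called a library here.

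In resting cells NF-kB dimers are held in the cytoplasm by IkB proteins. LPS binds the TLR4 receptor complex, whose signal activates the IkB kinase complex. Its catalytic kinases are encoded by CHUK (IKKalpha) and IKBKB (IKKbeta), and its regulatory subunit by IKBKG (NEMO). The kinase complex marks IkB for degradation and frees dimers such as the NFKB1 product p50 with RELA. NFKB2 is processed to p52, the usual partner of RELB in the non-canonical branch, and REL encodes c-Rel. Several subunit and IkB genes are themselves known NF-kB targets in other cells. The intestinal epithelium is in constant contact with bacterial LPS.

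Promoter sequence is shown for the subunit genes that changed with LPS and, for comparison, for RELA and CHUK, which did not pass the test. The sequences are from RefSeq (GRCh38.p14, another build than the GRCh37/hg19 named in the submitters' processing notes). Entries were found for 6 of the 8 genes, in 13 windows of 250 bases before to 50 bases after an annotated start. There was no entry for RELB or IKBKB. Each line below gives the 250 bases before a start, 5′ to 3′ along the strand of the gene, and capitals mark matches to the textbook NF-kB consensus on either strand, overlapping matches included.
NFKB1, the first of 2 windows, chr4:102501109-102501358, plus strand: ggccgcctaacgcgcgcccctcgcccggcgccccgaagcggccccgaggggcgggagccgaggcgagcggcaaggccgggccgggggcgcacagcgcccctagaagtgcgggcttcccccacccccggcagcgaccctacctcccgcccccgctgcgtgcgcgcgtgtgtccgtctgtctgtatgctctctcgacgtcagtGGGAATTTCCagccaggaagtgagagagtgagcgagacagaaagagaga
NFKB2, the second of 3 windows, chr10:102394328-102394577, plus strand: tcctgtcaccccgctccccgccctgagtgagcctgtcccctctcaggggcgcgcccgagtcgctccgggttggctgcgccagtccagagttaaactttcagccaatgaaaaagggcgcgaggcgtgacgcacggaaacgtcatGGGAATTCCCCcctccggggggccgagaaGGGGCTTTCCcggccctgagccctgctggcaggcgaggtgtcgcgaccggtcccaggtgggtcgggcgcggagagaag
NFKB2, the third of 3 windows, chr10:102395455-102395704, plus strand: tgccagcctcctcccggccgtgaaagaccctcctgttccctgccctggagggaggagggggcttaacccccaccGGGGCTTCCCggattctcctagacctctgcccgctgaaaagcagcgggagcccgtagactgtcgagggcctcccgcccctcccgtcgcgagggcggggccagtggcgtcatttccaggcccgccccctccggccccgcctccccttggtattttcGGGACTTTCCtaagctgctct
REL, chr2:60881324-60881573, plus strand: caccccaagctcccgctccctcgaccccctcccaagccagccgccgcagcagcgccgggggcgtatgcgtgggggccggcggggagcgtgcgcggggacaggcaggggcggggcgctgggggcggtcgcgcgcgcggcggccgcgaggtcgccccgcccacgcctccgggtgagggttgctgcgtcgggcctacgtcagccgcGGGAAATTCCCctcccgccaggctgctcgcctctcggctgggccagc
RELA, the second of 2 windows, chr11:65662917-65663166, minus strand: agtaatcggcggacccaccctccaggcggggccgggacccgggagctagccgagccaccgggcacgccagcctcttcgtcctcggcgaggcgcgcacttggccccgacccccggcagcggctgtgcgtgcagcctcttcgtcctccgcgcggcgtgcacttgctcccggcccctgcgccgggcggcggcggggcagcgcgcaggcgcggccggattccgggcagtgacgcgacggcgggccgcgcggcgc
CHUK, chr10:100229597-100229846, minus strand: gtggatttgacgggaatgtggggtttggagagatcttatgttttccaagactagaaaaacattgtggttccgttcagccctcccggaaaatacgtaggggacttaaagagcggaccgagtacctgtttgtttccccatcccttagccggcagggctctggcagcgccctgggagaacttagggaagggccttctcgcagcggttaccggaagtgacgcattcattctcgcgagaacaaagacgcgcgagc

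The consensus matched 1 window of NFKB1, 2 windows of NFKB2 and the REL window. The other window of NFKB1 and that of NFKB2 held no match and are not shown. The consensus matched neither RELA window, nor that of CHUK, nor any of the 4 IKBKG windows. In NFKB1 the match GGGAATTTCC began at position -49, counted back from the base before the start. In NFKB2 the second window held GGGAATTCCC at -107 and GGGGCTTTCC at -78, and the third held GGGGCTTCCC at -176 and GGGACTTTCC at -21. In REL the match GGGAAATTCC began at -47. Of all 35116 RefSeq windows of this length, 5.91% held a match. Counted by gene, 7.09% of 27305 genes held a match in at least 1 window. The looser pattern GGGNNNNNCC was found in 58.7% of the windows. The genes shown were picked by their LPS result, and a link between match and response was not tested. These matches are letters in a window and no measure of binding.

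Levels are given in FPKM, a fragment count divided by transcript length and by the total of mapped fragments, so levels of different genes can be set side by side per length. In Control libraries NFKB1 was highest with 21.0 ± 0.869 FPKM and NFKB2 next with 20.3 ± 1.21 FPKM, and their ranges overlapped (SD, n = 3 here and below). RELA (12.97 ± 3.39 FPKM), RELB (11.98 ± 0.399 FPKM) and CHUK (10.8 ± 0.670 FPKM) followed, each overlapping its neighbour. IKBKB had 6.05 ± 0.375 FPKM, IKBKG 5.09 ± 0.381 FPKM and REL, the lowest, 2.90 ± 0.462 FPKM. In the libraries labelled PINT shRNA1 the order differed. RELA, with 22.2 ± 1.24 FPKM, stood beside NFKB1, with 22.8 ± 0.601 FPKM, and above NFKB2, with 16.7 ± 0.909 FPKM. RELB, with 8.83 ± 1.77 FPKM, overlapped IKBKB there.

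**Figure D1:**
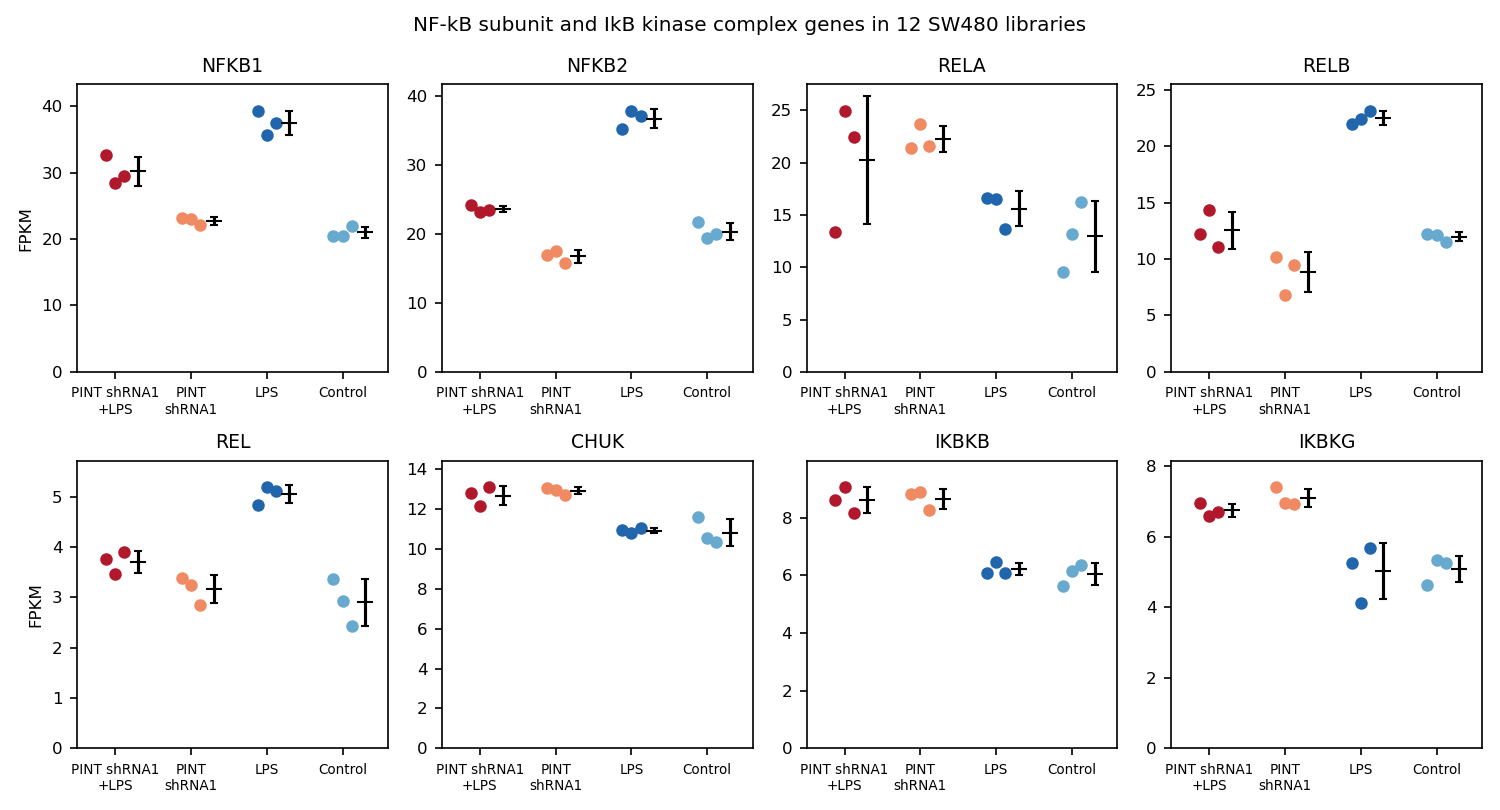
Level (FPKM, axis from 0) of each of the 8 genes in 12 SW480 libraries. Coloured points are single libraries in the order of replicates 1 to 3, and the black mark and bar beside them are the mean and SD of the group. NFKB1, NFKB2, RELB and REL are highest in the LPS group, and the 3 kinase complex genes are higher in both groups labelled PINT shRNA1.

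LPS raised 4 of the 5 subunit genes in wild-type cells and none of the 3 kinase complex genes passed the test. NFKB1 had 39.4, 35.7 and 37.5 FPKM in LPS libraries, against 20.5, 20.5 and 22.0 FPKM in Control libraries. NFKB2 had 35.2, 37.8 and 37.0 FPKM in LPS libraries, against 21.6, 19.3 and 19.9 FPKM in Control libraries. For both genes every LPS library lay above every Control library. On the log2(FPKM + 0.5) scale used for all fold changes, NFKB1 rose by 0.82 ± 0.0598 (SE; adjusted p = 3.61e-05) and NFKB2 by 0.84 ± 0.0564 (adjusted p = 1.87e-05). All adjusted p-values are from limma, with Benjamini-Hochberg adjustment over the 17214 genes tested, and a gene was called when its value was under 0.05.

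RELB, the partner of p52, had 22.0, 22.4 and 23.2 FPKM in LPS libraries, against 12.2, 12.2 and 11.5 FPKM in Control libraries. REL had 4.84, 5.19 and 5.10 FPKM in LPS libraries, against 3.35, 2.92 and 2.43 FPKM in Control libraries. Neither gene's groups overlapped. RELB rose by 0.88 ± 0.127 (adjusted p = 0.00392) and REL by 0.71 ± 0.103 (adjusted p = 0.00383). REL lost its call (adjusted p = 0.0619) in a fit of only the LPS and Control libraries. Ranked by log2 fold change from the highest among 17214 genes, RELB was at place 92, NFKB2 at 109, NFKB1 at 114 and REL at 163.

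RELA, which encodes the p65 subunit, had 16.6, 16.5 and 13.6 FPKM in LPS libraries, against 9.50, 13.1 and 16.3 FPKM in Control libraries. The groups overlapped, and the difference of 0.28 ± 0.224 did not pass the test (adjusted p = 0.575). CHUK had 10.9, 10.8 and 11.03 FPKM in LPS libraries, against 11.6, 10.5 and 10.3 FPKM in Control libraries. IKBKB had 6.10, 6.45 and 6.09 FPKM in LPS libraries, against 5.64, 6.16 and 6.37 FPKM in Control libraries. IKBKG had 5.27, 4.13 and 5.68 FPKM in LPS libraries, against 4.65, 5.34 and 5.27 FPKM in Control libraries. The ranges of all 3 kinase complex genes overlapped, and their log2 fold changes were 0.015, 0.035 and -0.024 with SEs of 0.0537, 0.0644 and 0.0994.

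Of the 8 genes, 4 were called and all of these were higher, while 2.76% of all genes tested were called, 1.57% higher and 1.19% lower. The median log2 fold change was 0.50 over the 8 genes and -0.038 over all genes. The groups did not overlap for 4 of the 8 genes and for 19.2% of all genes. The genome-wide 475 calls, 271 higher and 204 lower, became 440 higher and 116 lower with median scaling and 299 higher and 128 lower with quantile normalization. They were 288 without LPS replicate 3 and 295 without Control replicate 2, with the same 4 of the 8 genes higher each time.

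In the libraries labelled PINT shRNA1, LPS was also followed by higher NFKB1 and NFKB2. NFKB1 had 32.7, 28.4 and 29.5 FPKM in PINT shRNA1+LPS libraries, against 23.1, 23.1 and 22.1 FPKM in PINT shRNA1 libraries. NFKB2 had 24.1, 23.2 and 23.4 FPKM in PINT shRNA1+LPS libraries, against 16.9, 17.5 and 15.7 FPKM in PINT shRNA1 libraries. The groups stood apart for both. NFKB1 rose by 0.40 ± 0.0598 (adjusted p = 0.0306) and NFKB2 by 0.49 ± 0.0564 (adjusted p = 0.00654).

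RELB had 12.3, 14.3 and 11.1 FPKM in PINT shRNA1+LPS libraries, against 10.2, 6.84 and 9.45 FPKM in PINT shRNA1 libraries. REL had 3.75, 3.47 and 3.90 FPKM in PINT shRNA1+LPS libraries, against 3.39, 3.24 and 2.85 FPKM in PINT shRNA1 libraries. Neither gene overlapped between the groups, but the differences of 0.50 ± 0.127 for RELB (adjusted p = 0.248) and 0.20 ± 0.103 for REL (adjusted p = 0.618) did not pass the test. RELA had 13.3, 25.0 and 22.5 FPKM in PINT shRNA1+LPS libraries, against 21.4, 23.6 and 21.6 FPKM in PINT shRNA1 libraries. Its log2 fold change was -0.18 ± 0.224 (adjusted p = 0.872), and without PINT shRNA1+LPS replicate 1, the low library, it was 0.092.

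Here 2 of the 8 genes were called, both higher, against 0.186% of all genes (32 genes), 0.163% higher and 0.0232% lower. The groups did not overlap for 4 of the 8 genes and for 19.3% of all genes. The median log2 fold change was 0.098 over the 8 genes and -0.037 over all genes. NFKB1 lost its call in 8 of 23 alternative settings, with adjusted p-values up to 0.117. These included leaving out PINT shRNA1 replicate 1, 2 or 3 or PINT shRNA1+LPS replicate 1 or 3, so that 1 gene of the 8 was called. The genome-wide calls were 19 to 21 without PINT shRNA1 replicate 1 or 2 or PINT shRNA1+LPS replicate 1 or 2.

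**Figure D2:**
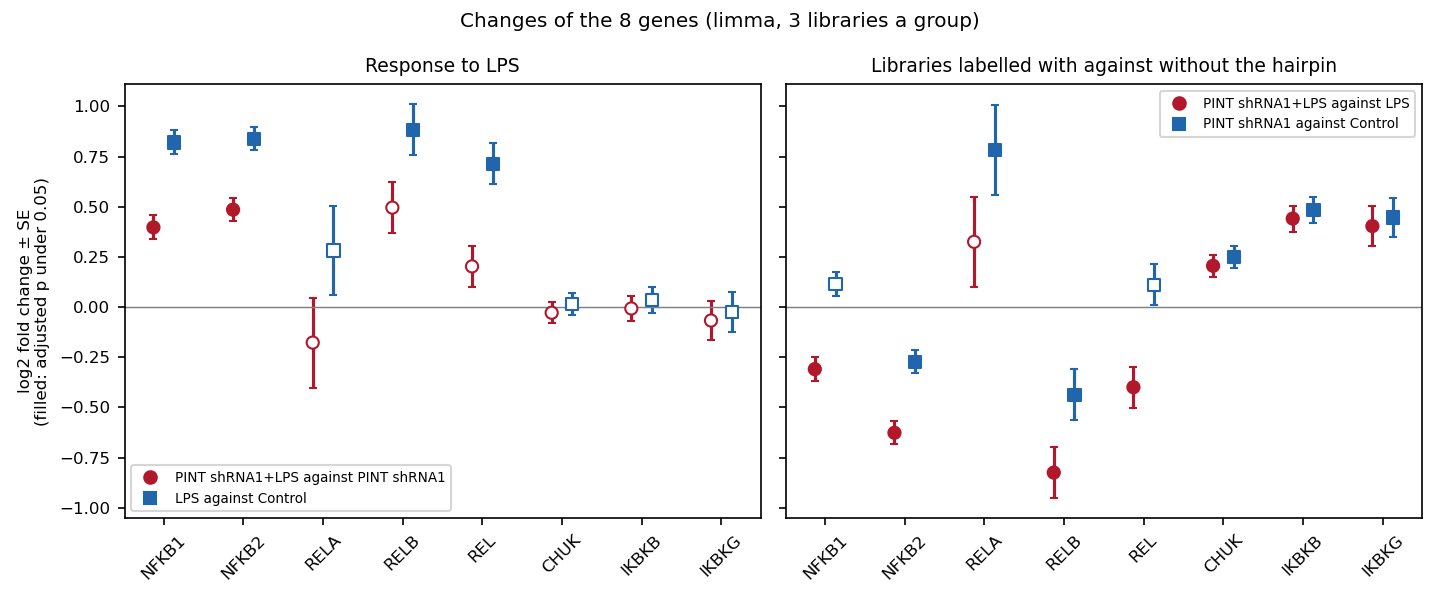
Log2 fold change of log2(FPKM + 0.5) with its SE for the 8 genes (horizontal axis). The left panel sets PINT shRNA1+LPS against PINT shRNA1 (red circles) and LPS against Control (blue squares), and the right panel sets PINT shRNA1+LPS against LPS (red circles) and PINT shRNA1 against Control (blue squares). Filled symbols have an adjusted p under 0.05, which holds for 4 genes for LPS against Control and for 2 for PINT shRNA1+LPS against PINT shRNA1.

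Whether the LPS response itself differed was tested as an interaction, the log2 response in cells labelled with the hairpin minus that in wild-type cells. All 5 subunit genes had negative values, and none of the 8 genes was called. NFKB1 had -0.42 ± 0.0846 (adjusted p = 0.158, unadjusted p = 0.000431), NFKB2 -0.35 ± 0.0798 (adjusted p = 0.209) and REL -0.51 ± 0.145 (adjusted p = 0.373). RELA had -0.46 ± 0.317 and RELB -0.39 ± 0.180, with adjusted p-values of 0.774 and 0.652. The RELA value ran from -0.63 to -0.19 over 22 alternative settings, and RELA was not called for LPS in either background. The 3 kinase complex genes lay between -0.043 and -0.042. In limma 3 of the 8 genes had an unadjusted p under 0.05, as had 1333 of all 17214 genes, and 0.128% of all genes were called, 0.0349% with a higher and 0.0929% with a lower response. The median was -0.37 over the 8 genes and -0.0014 over all genes.

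The targeted gene was measured before the comparisons of libraries labelled with and without the hairpin. LINC-PINT had 4.55, 5.26 and 5.34 FPKM in PINT shRNA1 libraries, against 2.88, 2.56 and 2.51 FPKM in Control libraries. It had 3.54, 4.00 and 4.08 FPKM in PINT shRNA1+LPS libraries, against 2.40, 2.82 and 1.91 FPKM in LPS libraries. LINC-PINT was thus higher where the hairpin was labelled, by 0.81 ± 0.118 with PBS (adjusted p = 0.000592) and by 0.61 ± 0.118 with LPS (adjusted p = 0.00284). A gene-level value does not show which transcripts were measured. PINT shRNA1 therefore stands here for a label alone, and no difference below is read as an effect of less PINT.

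The 3 kinase complex genes were all higher in the libraries labelled PINT shRNA1, with PBS and with LPS. CHUK had 13.1, 12.99 and 12.7 FPKM in PINT shRNA1 libraries, against 11.6, 10.5 and 10.3 FPKM in Control libraries, and 12.8, 12.1 and 13.1 FPKM in PINT shRNA1+LPS libraries, against 10.9, 10.8 and 11.03 FPKM in LPS libraries. IKBKB had 8.83, 8.89 and 8.26 FPKM in PINT shRNA1 libraries, against 5.64, 6.16 and 6.37 FPKM in Control libraries, and 8.61, 9.06 and 8.18 FPKM in PINT shRNA1+LPS libraries, against 6.10, 6.45 and 6.09 FPKM in LPS libraries. IKBKG had 7.41, 6.95 and 6.95 FPKM in PINT shRNA1 libraries, against 4.65, 5.34 and 5.27 FPKM in Control libraries, and 6.96, 6.60 and 6.71 FPKM in PINT shRNA1+LPS libraries, against 5.27, 4.13 and 5.68 FPKM in LPS libraries. No range overlapped in any of these 6 pairs, as held for 41.3% of all genes tested with PBS and 45.7% with LPS.

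With PBS, CHUK was higher by 0.25 ± 0.0537 (adjusted p = 0.00620), IKBKB by 0.48 ± 0.0644 (adjusted p = 0.000351) and IKBKG by 0.45 ± 0.0994 (adjusted p = 0.00728). With LPS, CHUK was higher by 0.21 (adjusted p = 0.0150), IKBKB by 0.44 (adjusted p = 0.000566) and IKBKG by 0.40 (adjusted p = 0.0112). Ranked by log2 fold change from the highest among 17214 genes, IKBKB was at place 1543, IKBKG at 1808 and CHUK at 4379 with PBS. With LPS they were at places 2047, 2399 and 5255, in that order. Of all genes tested, 16.9% were called higher with PBS and 17.7% with LPS. The CHUK difference with LPS lost its call with median scaling (0.15, adjusted p = 0.0572), without PINT shRNA1+LPS replicate 1 (0.20, adjusted p = 0.0506) and without PINT shRNA1+LPS replicate 3 (0.18, adjusted p = 0.0598).

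Reads could be shared between some of these genes and others, and whether counting used strand is not given in the sources used here. IKBKG has a near-identical pseudogene, IKBKGP1, which had 6.15 ± 0.231 FPKM in PINT shRNA1 libraries and 3.99 ± 0.434 FPKM in Control libraries, a called difference of 0.57 (adjusted p = 0.00101). How reads divide between these 2 copies is uncertain. With both rows summed, the difference was 0.52 for PINT shRNA1 against Control (adjusted p = 0.000588) and 0.54 for PINT shRNA1+LPS against LPS (adjusted p = 0.000445), and IKBKG kept its call in all 24 alternative settings of both comparisons, with adjusted p-values up to 0.0292 and 0.0414. CHUK overlaps ERLIN1 on the same strand, which was higher by 0.40 ± 0.111 in PINT shRNA1 libraries than in Control libraries (adjusted p = 0.0211). REL overlaps AC010733.2 on the same strand, matched here by its Ensembl identifier. AC010733.2 had 7.16, 7.30 and 7.70 FPKM in LPS libraries, against 4.76, 5.23 and 5.23 FPKM in Control libraries, and was called higher (0.50 ± 0.0639, adjusted p = 0.00170). It was lower in PINT shRNA1+LPS than in LPS libraries (-0.23 ± 0.0639, adjusted p = 0.0201). It thus moved in the direction of REL in both comparisons. The part of ERLIN1 in the values of CHUK and of AC010733.2 in those of REL was not tested.

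The subunit genes moved in both directions between the libraries labelled with and without the hairpin. RELA was higher in PINT shRNA1 libraries (21.4, 23.6 and 21.6 FPKM) than in Control libraries (9.50, 13.1 and 16.3 FPKM), by 0.78 ± 0.224 (adjusted p = 0.0247). The groups did not overlap, but the Control libraries were spread widely. RELA lost its call in 6 of 23 alternative settings, with adjusted p-values up to 0.0854, among them leaving out Control replicate 1 (0.59, adjusted p = 0.0854) or Control replicate 2 (0.81, adjusted p = 0.0504). It was likewise lost without PINT shRNA1 replicate 1 (adjusted p = 0.0547), replicate 2 (adjusted p = 0.0707) or replicate 3 (adjusted p = 0.0556). With LPS, RELA had 13.3, 25.0 and 22.5 FPKM in PINT shRNA1+LPS libraries and 16.6, 16.5 and 13.6 FPKM in LPS libraries. These overlapped, with a difference of 0.33 ± 0.224 (adjusted p = 0.312) that passed the test without PINT shRNA1+LPS replicate 1 (0.59, adjusted p = 0.0399).

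NFKB2 was lower in PINT shRNA1 than in Control libraries by 0.27 ± 0.0564 on the log2 scale (log2 fold change -0.27, adjusted p = 0.00499), and lower in PINT shRNA1+LPS than in LPS libraries (-0.63, adjusted p = 2.26e-05). RELB was lower in the same comparisons (-0.44 ± 0.127, adjusted p = 0.0271, and -0.82 ± 0.127, adjusted p = 0.000791). The RELB call with PBS was lost in 5 of 23 alternative settings, among them without Control replicate 1 (-0.42) or 2 (-0.43) and without PINT shRNA1 replicate 2 (-0.27, adjusted p = 0.0616). NFKB1 and REL were called lower with LPS, by log2 fold changes of -0.31 ± 0.0598 (adjusted p = 0.00301) and -0.40 ± 0.103 (adjusted p = 0.0139). REL lost that call without PINT shRNA1+LPS replicate 2 (-0.36, adjusted p = 0.0547). With PBS, NFKB1 differed by 0.11 ± 0.0598 (adjusted p = 0.189) and REL by 0.11 ± 0.103 (adjusted p = 0.463).

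These counts stand against a broad background. For PINT shRNA1 against Control, 4 of the 8 genes were higher and 2 lower, while 27.3% of all genes were called, 16.9% higher and 10.3% lower. For PINT shRNA1+LPS against LPS, 3 of the 8 were higher and 4 lower, while 29.2% of all genes were called, 17.7% higher and 11.6% lower. The groups did not overlap for 7 of the 8 genes in each comparison, and for 41.3% and 45.7% of all genes. With median scaling the genome-wide calls became 2215 higher and 2151 lower, in place of 2913 and 1780, for PINT shRNA1 against Control, and 2349 higher and 2530 lower, in place of 3039 and 1994, for PINT shRNA1+LPS against LPS. With quantile normalization they were 2263 higher and 2204 lower for PINT shRNA1 against Control. The comparisons share groups with each other, so their values for the 8 genes are not independent.

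Other measures also differed between these libraries. The 6 epithelial markers summed to 1428 to 1523 FPKM in PINT shRNA1, 1533 to 1592 FPKM in PINT shRNA1+LPS, 2354 to 2398 FPKM in LPS and 2331 to 2657 FPKM in Control libraries. None of the 6 was at 0 in any group. KRT8 and KRT18 make up most of that sum. For PINT shRNA1 against Control and for PINT shRNA1+LPS against LPS, 5 of the 6 were called lower, and CDH1 was not (-0.022, adjusted p = 0.945, and -0.44, adjusted p = 0.0966). The 6 leukocyte markers summed to 2.84 to 4.93 FPKM over the 12 libraries. Among them CD68 was higher in PINT shRNA1 (1.45 ± 0.129 FPKM) than in Control libraries (0.751 ± 0.0678 FPKM, adjusted p = 0.00295) and in PINT shRNA1+LPS than in LPS libraries (0.63, adjusted p = 0.00285), LYZ was not called, and PTPRC, the general leukocyte marker, was at most 0.024 FPKM on average in a group. In every group the fibroblast and endothelial markers summed to at most 1.31 and 0.322 FPKM. The endothelial sum holds VWF and CDH5 only, since no row was matched to PECAM1. Genes above 0 FPKM ranged in number from 30725 to 31961 over the 3 PINT shRNA1+LPS and 3 PINT shRNA1 libraries, and from 27078 to 28430 over the 3 LPS and 3 Control libraries. Relative sequencing depth was 1.3003 to 1.51 in PINT shRNA1+LPS, 0.914 to 1.05 in PINT shRNA1, 0.848 to 0.858 in LPS and 0.809 to 1 in Control libraries. The part of these measures in the differences was not tested. In bulk samples, fewer cells of a kind and less RNA per cell cannot be told apart.

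The summed level of the 5 subunit genes was 90.3 ± 4.10 FPKM in PINT shRNA1+LPS, 73.7 ± 1.73 FPKM in PINT shRNA1, 117 ± 0.792 FPKM in LPS and 69.1 ± 2.62 FPKM in Control libraries. RELA made up 22.3 ± 5.94% of that sum in PINT shRNA1+LPS, 30.2 ± 1.64% in PINT shRNA1, 13.3 ± 1.35% in LPS and 18.7 ± 4.26% in Control libraries. RELB made up 13.9 ± 1.47% of it in PINT shRNA1+LPS, 11.998 ± 2.43% in PINT shRNA1, 19.2 ± 0.652% in LPS and 17.4 ± 1.21% in Control libraries. The share of NFKB1 stayed between 30.1% and 37.9% in single libraries, and that of REL between 3.37% and 4.98%. The 3 kinase complex genes summed to 28.1 ± 0.277 FPKM in PINT shRNA1+LPS, 28.7 ± 0.705 FPKM in PINT shRNA1, 22.2 ± 0.719 FPKM in LPS and 22.0 ± 0.0791 FPKM in Control libraries.

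**Figure D3:**
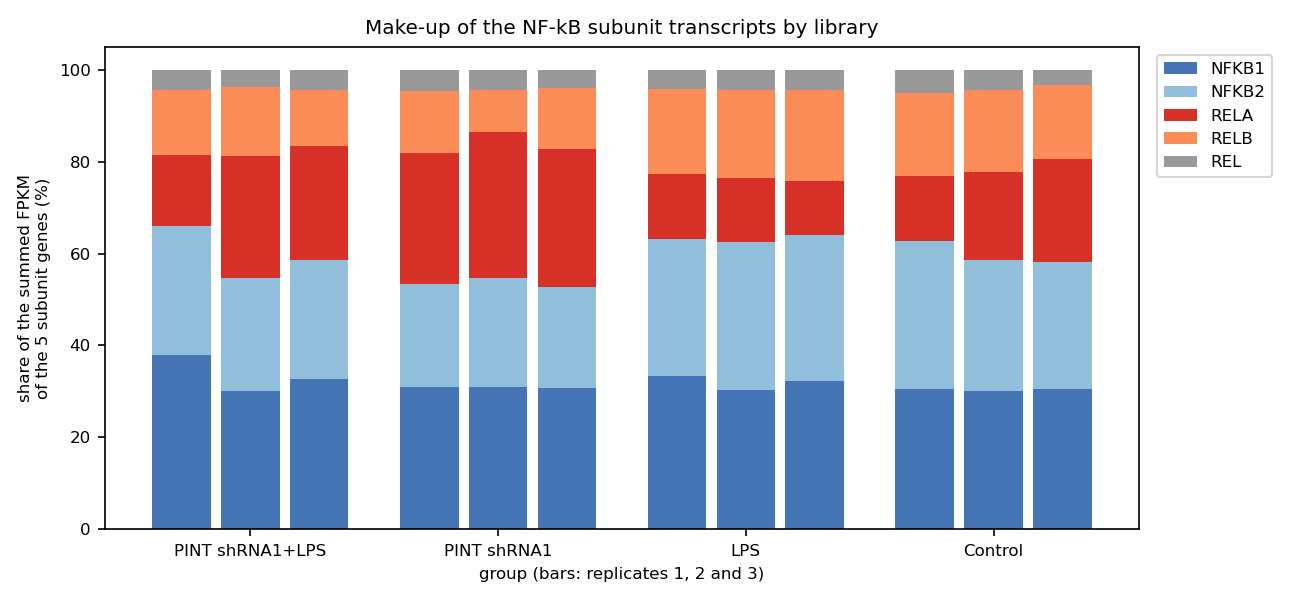
Share of each NF-kB subunit gene in the summed FPKM of the 5 genes (percent, vertical axis), with 1 bar for each of the 12 libraries grouped by condition. RELA (red) takes 28.5% to 31.8% in the 3 PINT shRNA1 libraries and 14.1% to 22.6% in the 3 Control libraries.

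Ratios within a library do not depend on how libraries are scaled to each other. The NFKB1 to RELA ratio was 2.37, 2.16 and 2.75 in LPS libraries, against 2.16, 1.56 and 1.35 in Control libraries. It was 1.08, 0.976 and 1.02 in PINT shRNA1 libraries, below every Control library. In PINT shRNA1+LPS libraries it was 2.45, 1.14 and 1.31, which overlapped the LPS libraries. The CHUK to IKBKB ratio was 1.48, 1.46 and 1.54 in PINT shRNA1 libraries, against 2.06, 1.71 and 1.63 in Control libraries, and 1.49, 1.34 and 1.60 in PINT shRNA1+LPS libraries, against 1.79, 1.68 and 1.81 in LPS libraries. NFKB2 to RELB averaged 1.63 ± 0.0511 in LPS libraries and 1.69 ± 0.0946 in Control libraries, and these overlapped. REL to RELA averaged 0.327 ± 0.0429 in LPS libraries and 0.241 ± 0.103 in Control libraries, which also overlapped. In two-sided exact permutation tests of 4 ratios in 4 comparisons (16 in all), no p was below 0.1, the smallest that 3 against 3 libraries allow, and the lowest adjusted p was 0.267.

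Other genes of the pathway were examined in 7 lists, compiled with earlier results of these data known. IkB proteins restrain or modulate NF-kB dimers, and 3 of 6 rose with LPS in wild-type cells, where 1.57% of all genes tested were called higher and 1.19% lower. NFKBIA, which encodes IkBalpha, had 39.7, 39.7 and 25.3 FPKM in LPS libraries, against 14.5, 12.6 and 16.5 FPKM in Control libraries, and rose by 1.21 ± 0.193 (adjusted p = 0.00700). NFKBIE rose by 0.92 ± 0.112 (adjusted p = 0.00132). BCL3, an atypical IkB protein that binds p50 and p52, rose by 1.13 ± 0.142 (adjusted p = 0.00155). Of the 8 genes of the linear ubiquitin ligase and of deubiquitinases with their adaptors, 3 rose. TNIP1, which encodes a partner of the deubiquitinase A20, rose by 0.81 ± 0.0623 (adjusted p = 5.04e-05), TNFAIP3, which encodes A20 itself, by 0.84 ± 0.0790 (adjusted p = 0.000202) and CYLD by 0.35 ± 0.0709 (adjusted p = 0.0267).

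Of 7 non-canonical pathway genes tested (8 listed), BIRC3 (1.35 ± 0.116, adjusted p = 0.000105) and TRAF3 (0.34 ± 0.0381, adjusted p = 0.000700) rose with LPS in wild-type cells. Both encode parts of the complex that keeps the kinase NIK low. Of 15 genes from the receptor to the kinase TAK1, IRAK2 rose (1.12 ± 0.0883, adjusted p = 5.64e-05) and CD14, an LPS co-receptor at low level, was called lower. CD14 had 0.214 ± 0.0157 FPKM in LPS libraries, against 0.618 ± 0.131 FPKM in Control libraries (log2 fold change -0.64, adjusted p = 0.0371). Every LPS library and Control replicate 2 (0.470 FPKM) lay under the filter of 0.5 FPKM. CD14 thus entered the test only with the help of libraries labelled PINT shRNA1. The CD14 call was lost in 14 of 21 alternative settings and the CYLD call in 7 of 23, and those of NFKBIA, IKBKE and SIRT1 in 1, the fit of only the groups compared. IKBKE, the only called gene of 5 IKK-related kinases and adaptors, rose by 0.45 ± 0.0606 (adjusted p = 0.00257). SIRT1, a deacetylase, was the only called gene of 14 RELA cofactors and modifiers, at 0.37 ± 0.0628 (adjusted p = 0.0109). None of the 5 genes of IkB ubiquitination and degradation was called. The median log2 fold change was 0.58 for IkB proteins, 0.22 for the non-canonical list and between -0.13 and 0.042 for the other lists.

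For PINT shRNA1+LPS against PINT shRNA1, where 0.186% of all genes were called, TNFAIP3 (0.62 ± 0.0790, adjusted p = 0.00965), TNIP1 (0.45 ± 0.0623, adjusted p = 0.0172) and BIRC3 (1.02 ± 0.116, adjusted p = 0.00557) were the only called genes of the 7 lists. TNIP1 lost that call in 6 of 23 alternative settings and TNFAIP3 in 3. Medians ran from -0.12 for IkB ubiquitination and degradation to 0.25 for IkB proteins. In the interaction no gene of any list was called by limma, and the median of IkB proteins was -0.31.

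For PINT shRNA1 against Control, 16.9% of all genes tested were called higher and 10.3% lower, 27.3% in all, and the list counts are read against that. The receptor list had 2 of 15 genes higher and 1 lower. TLR4 had 2.51, 2.07 and 2.42 FPKM in PINT shRNA1 libraries, against 5.43, 6.32 and 5.81 FPKM in Control libraries (log2 fold change -1.17 ± 0.0846, adjusted p = 5.47e-06). The groups stood far apart. UBE2N (0.31) and TAB3 (0.20) were higher. OTULIN was higher (0.30) and TNIP1 lower (-0.30) among 8 genes of linear ubiquitin and deubiquitination, and LTBR higher (0.23) and BIRC3 lower (-0.60) among 7 non-canonical genes. Of 5 IKK-related genes, TANK (0.36) and TBK1 (0.13) were higher and IKBKE lower (-0.21). Of 5 genes of IkB ubiquitination, SKP1 (0.27) and RBX1 (0.13), subunits of the ubiquitin ligase, were higher. Of 14 RELA cofactors and modifiers, 3 were higher, with HDAC1 at 0.17 and RPS6KA5 at 0.26, and 1 was lower. None of 6 IkB genes was called. The calls of RBX1, TBK1, LTBR, SKP1, RPS6KA5, IKBKE, TAB3 and HDAC1 were lost in 14, 12, 8, 8, 7, 5, 2 and 1 of 23 alternative settings.

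For PINT shRNA1+LPS against LPS, 17.7% of all genes tested were called higher and 11.6% lower, 29.2% in all. Of the receptor genes, 2 of 15 were higher and 4 lower, with TLR4 at -1.03, IRAK2 at -0.64 and RIPK1 at -0.41. TLR4 had 2.30, 2.17 and 2.08 FPKM in PINT shRNA1+LPS libraries, against 5.00, 4.74 and 5.24 FPKM in LPS libraries. Of 6 IkB genes, NFKBIB (0.60) and NFKBID (0.23) were higher and NFKBIA lower (-0.61). NFKBIA had 23.5, 17.0 and 27.3 FPKM in PINT shRNA1+LPS libraries, so its highest library there lay above the lowest LPS library. Of 8 genes of linear ubiquitin and deubiquitination 2 were higher and 3 lower, with TNIP1 at -0.67, CYLD at -0.41 and OTULIN at 0.31. BIRC3 (-0.93) and TRAF3 (-0.21) were lower among 7 non-canonical genes. TBKBP1 (0.80) and TANK (0.23) were higher and IKBKE lower (-0.38) among 5 IKK-related genes. FBXW11 (0.26) was higher among 5 of IkB ubiquitination. Of 14 RELA cofactors and modifiers 4 were higher and 2 lower, with RPS6KA4 at 0.40 and PDLIM2, a ubiquitin ligase for RELA, at -0.72. The calls of NFKBID, TANK, NFKBIA, FBXW11, NFKBIB and PDLIM2 were lost in 13, 8, 7, 6, 4 and 2 of 23 alternative settings. EZH2, a Polycomb methyltransferase held in the cofactor list, had mean levels of 29.4 to 30.7 FPKM in the 4 groups and was not called in any comparison.

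For each of the 8 genes, the 3 genes with the most similar profile were found among 12331 genes whose mean reached 1 FPKM, by the root mean square (RMS) difference of log2(FPKM + 0.5) over the 12 libraries after centring each gene on its mean. This is a description of 12 libraries that share 4 conditions. NFKB1 was nearest to SMAD3 (RMS difference 0.0868), HIVEP2 (0.113) and CACNG8 (0.117). For NFKB2 the nearest were CXCL1 (0.0946), a neutrophil chemokine, TNIP1 (0.0979) and AKAP12 (0.103). RELB had WNT10A (0.124), ARHGAP31 (0.153) and TNIP1 (0.156), and REL had HIVEP2 (0.101), ZC3H12C (0.108) and DRAM1 (0.113). HIVEP2 thus appeared for both NFKB1 and REL, and TNIP1 for both NFKB2 and RELB.

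CXCL1 and NFKB2 differed in the size of their changes more than in their order. For LPS against Control their log2 fold changes were 1.02 for CXCL1 and 0.84 for NFKB2, and for PINT shRNA1+LPS against LPS -0.85 for CXCL1 and -0.63 for NFKB2. CXCL1 changed less than NFKB2 for PINT shRNA1 against Control (-0.17 for CXCL1 and -0.27 for NFKB2). The same held for PINT shRNA1+LPS against PINT shRNA1 (0.34 for CXCL1 and 0.49 for NFKB2). The kinase complex genes had closer neighbours. CHUK was nearest to HPRT1 (0.0333), a purine salvage enzyme gene often used as a reference, IKBKB to VIM (0.0567), which encodes vimentin, and IKBKG to MUC13 (0.0768). HPRT1 was not stable in these libraries. By limma it was called higher for PINT shRNA1 against Control (0.28, adjusted p = 0.000214). It was also called higher for PINT shRNA1+LPS against LPS (0.17, adjusted p = 0.00408). RELA had the most distant neighbours, with MAFG (0.204) first.

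**Figure D4:**
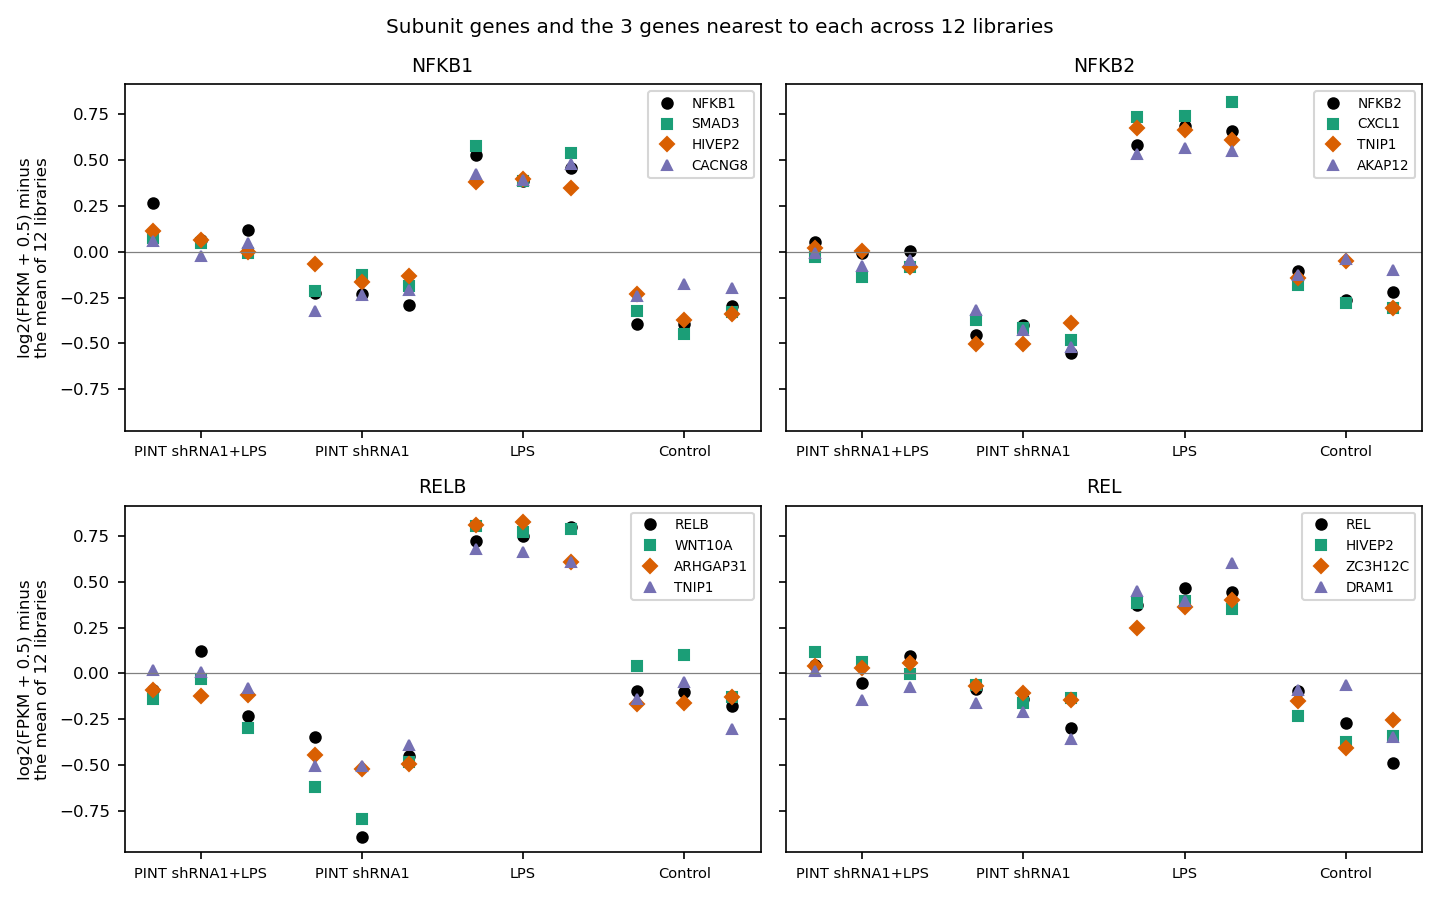
Centred log2(FPKM + 0.5) of NFKB1, NFKB2, RELB and REL (black circles) and of the 3 genes nearest to each, in 12 libraries grouped by condition, with replicates 1 to 3 from left to right in a group. In each panel the 4 genes are highest in the LPS group, and NFKB2 and RELB with their neighbours are lowest in the PINT shRNA1 group.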

How the data were processed

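RNA from the 15 labelled SW480 samples, which correspond to the 12 columns called libraries here, was sequenced on an Illumina HiSeq instrument, per the labels' protocols. The deposited values are FPKM per Ensembl gene, made by the authors. StringTie 1.3.4d, HISAT2 2.1.0, fastp and GRCh37/hg19 are named, without roles, in the submitters' processing notes. FPKM summed to 409248 to 421487 per library, absolute depth is unknown, and relative depth came from steps among low values (0.01 to 0.3 FPKM). Another 6 columns were not used here. The 17214 genes that reached 0.5 FPKM in 3 or more libraries, all 8 members among them, were fitted on the log2(FPKM + 0.5) scale by limma 3.58.1 (R 4.3.3) in 1 group-means fit of 12 libraries with an intensity trend and two-sided contrasts. The fit was tested on simulated data with planted log2 changes of 1, up or down, with LPS. Smaller changes, hairpin effects and interactions were not planted. Overlapping genes came from GENCODE 29, of another build, by name only. The members, lists and tests were chosen with earlier results of these data known. Named genes were the 8 members, up to 3 called genes of smallest p per list and comparison, the 3 nearest genes per member, and LINC-PINT, EZH2 and TLR4; overlapping genes were added. A few genes that this rule names are not reported here. Alternatives were median scaling, quantile normalization, a common total, no filter or one of 1 FPKM, a pseudocount of 0.1 or 1, no trend, robust moderation, a replicate block, only the groups compared, IKBKG summed with IKBKGP1, and leaving out each library.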

Additional observations from a re-analysis of the deposited data

How the results depend on the processing

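Of LPS against Control, the 4 calls of NFKB1, NFKB2, RELB and REL held in all 23 alternatives, apart from REL in a fit of only the groups compared. Genome-wide calls there were 129 in that fit and 311 with a replicate block, and 288 to 411 without 1 library. For PINT shRNA1+LPS against PINT shRNA1, genome-wide calls were 59 with median scaling, 57 with quantile normalization, 18 with no intensity trend, 17 with a replicate block and 19 to 40 without 1 library. Members called there were 1 with no intensity trend, with only the groups compared and with a replicate block, and 1 to 2 without 1 library. Interaction calls were 14 with a replicate block and 17 to 26 without 1 library. Same-numbered libraries did not deviate together (correlations -0.0476 to 0.0569 over 18 pairs). The labels state no pairing, and these correlations cannot show whether the numbers mark one. The lowest and highest values of the other counts without 1 library were 3551 and 4755 genes and 4 and 6 members for PINT shRNA1 against Control, and 3775 and 5098 genes and 6 and 7 members for PINT shRNA1+LPS against LPS.

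Some values that were not called turned sign, and not all of them were near 0. They included RELA for PINT shRNA1+LPS against PINT shRNA1 (-0.18 in the main fit). The NFKB2 to RELB ratio for PINT shRNA1 against Control (log2 difference 0.18) was also among them. For LPS against Control, IKBKG was 0.028 with median scaling, 0.033 with quantile normalization, 0.028 summed with IKBKGP1 and -0.11 to 0.098 without 1 library, where CHUK ran from -0.015 to 0.063 and IKBKB from -0.011 to 0.070. For PINT shRNA1+LPS against PINT shRNA1, CHUK was 0.015 and IKBKB 0.036 with median scaling, IKBKB was 0.027 with quantile normalization, and IKBKG was 0.041 summed with IKBKGP1. There, values without 1 library ran from -0.35 to 0.092 for RELA, -0.051 to 0.0015 for CHUK and -0.042 to 0.028 for IKBKB. In the interaction IKBKG was 0.014 summed with IKBKGP1, and values without 1 library ran from -0.077 to 0.0043 for IKBKB and from -0.16 to 0.043 for IKBKG. Log2 differences of the ratios without 1 library ran from -0.030 to 0.29 (NFKB2 to RELB, PINT shRNA1 against Control), -0.13 to 0.19 (NFKB2 to RELB, PINT shRNA1+LPS against PINT shRNA1), -0.091 to 0.078 (CHUK to IKBKB, LPS against Control) and -0.083 to 0.046 (CHUK to IKBKB, PINT shRNA1+LPS against PINT shRNA1). The cause was not tested. Alternatives for pathway genes and for nearest genes were chosen after seeing the data. Of 57 calls in the pathway lists, alternatives were run for the 48 that the naming rule selects, of which 27 held in every alternative run and none turned sign, and not for the other 9. FPKM gives no counting error, so the SEs rest on the spread between libraries, pooled over 4 groups of 3 and moderated across genes.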
